A study of Mus musculus with 17 samples.

Results

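The transcripts described here are 35 genes that mark endothelial cells, mural cells and skeletal muscle. They were taken as a named list of 14 endothelial, 6 mural and 15 muscle genes, out of 55335 genes counted in each library, and all 35 were found once in every library by their Ensembl identifier. They were followed in bulk RNA-sequencing libraries of osteoprogenitor cells (OPCs) and skeletal stromal/stem cells (SSCs) from mouse bone. The animals were Cxcr4+/+ (WT), Cxcr4+/1013 (+/1013) and Cxcr41013/1013 (1013/1013) littermates, where the 1013 allele is a knock-in that truncates the tail of the chemokine receptor CXCR4 and makes it resistant to desensitization, as in WHIM syndrome. The study described them as females of 8 to 12 weeks, and each replicate was a sort of 3000 cells from a pool of 3 mice. There were 3 libraries of each genotype and cell type, except 2 of 1013/1013 SSCs, or 17 in all. Both populations were gated from collagenase-digested bone as negative for CD45, TER119 and CD31 and positive for CD51, and SSCs were Sca-1+ PDGFRα+ whereas OPCs were Sca-1-. The pools were thus defined by surface markers alone, and the knock-in allele was carried by every cell of the animal, not only by those sorted.

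Endothelial cells line vessels, hold together through cadherin and claudin junctions, and respond to the VEGF and angiopoietin ligands through receptor tyrosine kinases. Mural cells, the pericytes and vascular smooth muscle cells wrapped around them, contract through smooth muscle actin and myosin. Skeletal muscle fibers carry a separate set of actin, myosin and troponin isoforms in a sarcomere, and the muscle that attaches to bone also holds satellite cells, its stem cells. Because CD31 is the product of Pecam1, both gates were set to leave endothelial cells out, and no muscle marker was in either gate. A read of these genes in a sorted pool can come from such a cell or from a skeletal cell that carries the transcript at a low level. In bulk libraries, fewer cells of a type and less RNA per cell cannot be told apart.

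Gene counts totalled 64099849 to 92683497 per OPC library and 44217695 to 50509592 per SSC library, so that 3 counts, taken as the detection floor, corresponded to 0.0324 to 0.0468 and to 0.0594 to 0.0678 CPM, the count of a gene scaled to the total of its library. Cell type and depth ran together, and cannot be told apart. The sorted markers followed the gates, since Ly6a, the gene of Sca-1, was at 0.453 to 11.8 CPM in OPCs and at 530 to 1789 CPM in SSCs. Of the bone matrix and osteoblast genes, 6 summed to 92900 to 225300 CPM in OPCs and to 2269 to 16620 CPM in SSCs, most of it Col1a1. Such a share lowers the CPM of every other gene in OPCs, and levels are therefore given in CPM while fold changes were scaled by trimmed mean of M values (TMM). Leukocyte and erythroid transcripts stood apart in 3 libraries, with 14570 CPM in OPC WT replicate 3, 14380 CPM in OPC 1013/1013 replicate 2 and 9786 CPM in SSC WT replicate 3, against 37.9 to 2205 CPM in the other 14.

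**Figure D1:**
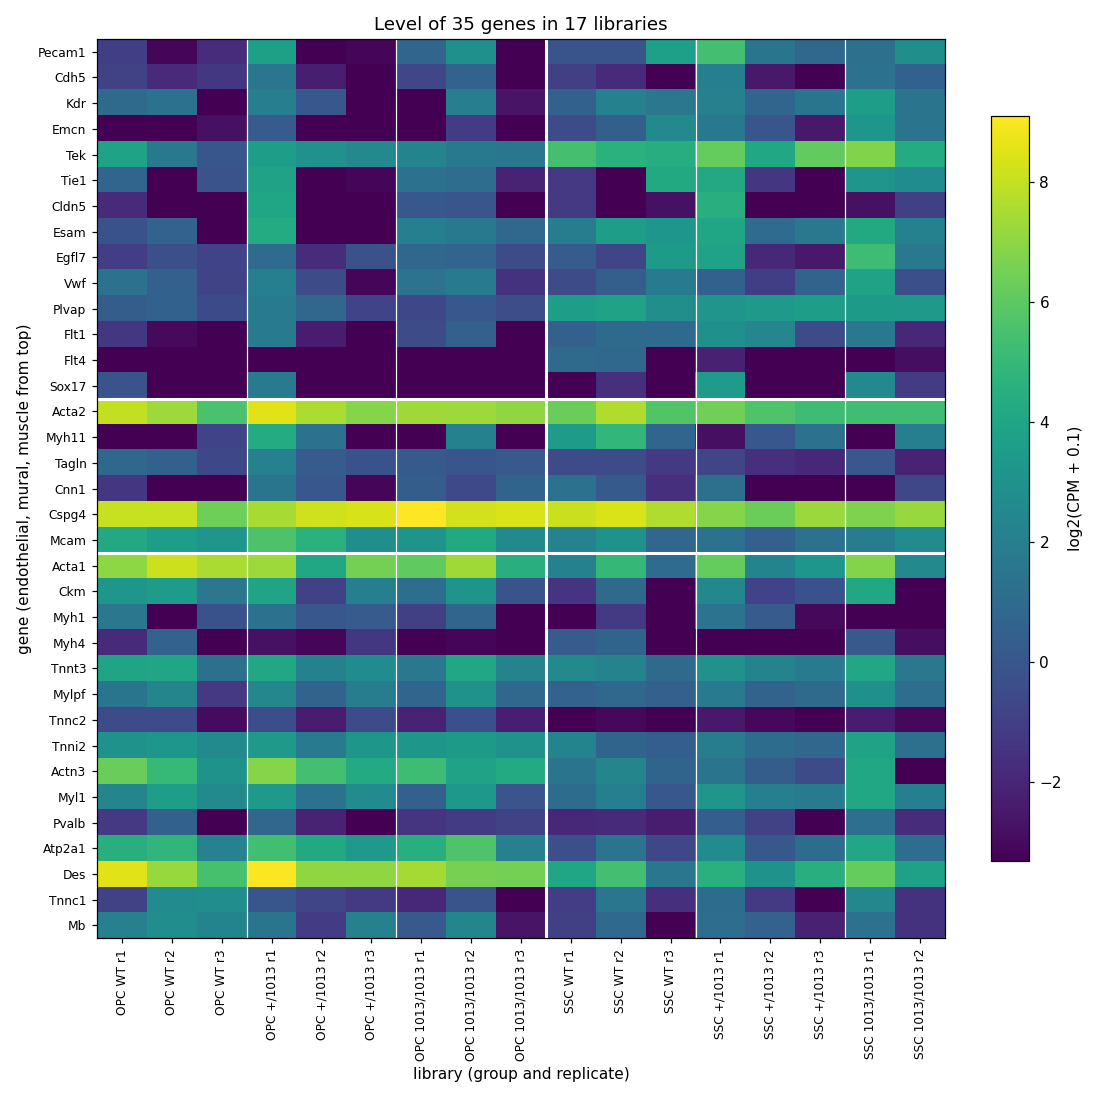
Level of each of the 35 genes (rows, endothelial, mural and muscle from the top) in each of the 17 libraries (columns), as log2(CPM + 0.1). Acta2, Cspg4, Acta1 and Des are the brightest rows, Tek and Plvap are brighter in SSCs, and OPC +/1013 replicate 1 (column OPC +/1013 r1) is bright over most endothelial rows.

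The endothelial genes were low in both populations, with a higher sum in SSCs. Their sum was 24.2, 10.5 and 3.797 CPM in WT OPCs, 99.95, 11.2 and 6.79 CPM in +/1013 OPCs and 19.6, 29.5 and 6.26 CPM in 1013/1013 OPCs. In SSCs the sum was 67.6, 62.8 and 94 CPM for WT, 225, 40.9 and 90.5 CPM for +/1013 and 232 and 58.98 CPM for 1013/1013. One OPC library, +/1013 replicate 1, was as high as the SSC range, and the other 8 OPC libraries lay below every SSC library. It held the highest OPC level of 11 of the 14 endothelial genes and of 5 of the 6 mural genes. Among SSCs, +/1013 replicate 1 was highest for 5 endothelial genes and 1013/1013 replicate 1 for 6.

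The defining endothelial genes were close to the floor in many libraries. Pecam1 encodes CD31 itself and was at 0.387, 0.0129 and 0.1998 CPM in WT, 13.3, 0 and 0.0108 CPM in +/1013 and 1.53, 7.35 and 0 CPM in 1013/1013 OPCs. In SSCs its level was 0.847, 0.843 and 12.7 CPM in WT, 41.3, 2.69 and 1.67 CPM in +/1013 and 2.33 and 7.11 CPM in 1013/1013 SSCs. It was thus above the floor in 5 of 9 OPC and in 8 of 8 SSC libraries, with single high libraries in WT and +/1013 SSCs and in +/1013 and 1013/1013 OPCs. Cdh5, the VE-cadherin of endothelial junctions, was at 0.434, 0.181 and 0.307 CPM in WT, 2.84, 0.105 and 0 CPM in +/1013 and 0.515, 1.44 and 0 CPM in 1013/1013 OPCs. Its SSC level was 0.403, 0.185 and 0 CPM in WT, 4.01, 0.0823 and 0 CPM in +/1013 and 2.42 and 1.33 CPM in 1013/1013 SSCs, and the groups overlapped throughout.

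Tek and Plvap behaved otherwise, and with Egfl7 they were the 3 endothelial genes above the floor in all libraries. Tek encodes TIE2, the receptor for angiopoietins (chr4:94739289-94874976, GRCm38, plus strand), and it supplied on average 39.1% of the endothelial sum in OPCs and 44.5% in SSCs. It was at 13.97, 3.01 and 0.892 CPM in WT, 12.4, 7.57 and 5.56 CPM in +/1013 and 4.73, 3.17 and 2.82 CPM in 1013/1013 OPCs, and at 43.2, 24.4 and 21.5 CPM in WT, 72.7, 17.2 and 69 CPM in +/1013 and 107 and 19.8 CPM in 1013/1013 SSCs. Plvap, which forms the diaphragms of fenestrated endothelium (chr8:71497765-71511752, minus strand), was at 1.18, 1.37 and 0.5995 CPM in WT, 3.51, 1.59 and 0.464 CPM in +/1013 and 0.541, 0.937 and 0.6602 CPM in 1013/1013 OPCs. All 8 SSC libraries lay above all 9 OPC libraries, at 11.96, 14.2 and 6.97 CPM in WT, 8.71, 10.5 and 11.9 CPM in +/1013 and 10.6 and 9.98 CPM in 1013/1013 SSCs. In CPM not scaled by TMM, Tek and Plvap were the 2 of 35 genes with no overlap between the cell types in that direction. The share over the 20238 genes tested was larger, at 11.4%. On the same scale 0 of 35 were below in every SSC library, against 2.4% of genes tested. The TMM factors were 0.863 for OPC WT replicate 1 and 1.07 for SSC +/1013 replicate 2, and after scaling Tek overlapped between these libraries. Plvap still did not overlap, and Des and Mcam were then below in every SSC library. The shares over all genes were not recomputed after scaling. Per kilobase of exon, Tek had a median of 7.18 CPM and Plvap of 5.31 CPM in SSCs, against 0.403 CPM for Pecam1 and 0.0700 CPM for Cdh5. Over the SSC libraries Plvap ran from 6.97 to 14.2 CPM, Tek from 17.2 to 107 CPM and Pecam1 from 0.843 to 41.3 CPM, and neither Tek nor Plvap was highest in the library that led Pecam1.

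Several other endothelial genes were sporadic, whereas Egfl7 was above the floor in all libraries and Vwf in 16 of 17. Kdr, Flt1 and Flt4 encode the VEGF receptors, and their medians were 0.933, 0.0903 and 0 CPM in OPCs and 2.87, 1.80 and 0.0198 CPM in SSCs. Flt4, which marks lymphatic endothelium, was at 0 in all OPC libraries and at 1.85, 1.67 and 0 CPM in WT, 0.121, 0 and 0 CPM in +/1013 and 0 and 0.0396 CPM in 1013/1013 SSCs. Its reads came almost wholly from 2 WT SSC libraries. Cldn5, a claudin of endothelial tight junctions, reached 16.1, 0 and 0 CPM in +/1013 OPCs and 22.7, 0 and 0 CPM in +/1013 SSCs. Elsewhere it was at 0.188, 0 and 0 CPM in WT and 0.924, 0.869 and 0 CPM in 1013/1013 OPCs, and at 0.323, 0 and 0.0449 CPM in WT and 0.0452 and 0.416 CPM in 1013/1013 SSCs, so that 1 library carried each +/1013 group. Sox17, a transcription factor of arterial endothelium, was at 0.797, 0 and 0 CPM in WT, 3.35, 0 and 0 CPM in +/1013 and 0, 0 and 0 CPM in 1013/1013 OPCs. Its SSC level was 0, 0.226 and 0 CPM in WT, 11.3, 0 and 0 CPM in +/1013 and 5.61 and 0.356 CPM in 1013/1013 SSCs, again with single libraries above the others. Vwf, the carrier of clotting factor VIII made by endothelium and megakaryocytes, was at 2.403, 1.31 and 0.476 CPM in WT, 4.06, 0.647 and 0.0108 CPM in +/1013 and 2.54, 3.35 and 0.255 CPM in 1013/1013 OPCs. In SSCs Vwf was at 0.605, 1.25 and 3.37 CPM in WT, 1.35, 0.391 and 1.42 CPM in +/1013 and 14.02 and 0.713 CPM in 1013/1013 SSCs, highest in 1013/1013 replicate 1. Tie1, Esam and Egfl7 had medians of 0.815, 1.41 and 0.712 CPM in OPCs and of 3.42, 6.73 and 2.05 CPM in SSCs, and Emcn, endomucin of sinusoidal vessels, was at a median of 0 CPM in OPCs and 1.95 CPM in SSCs.

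**Figure D2:**
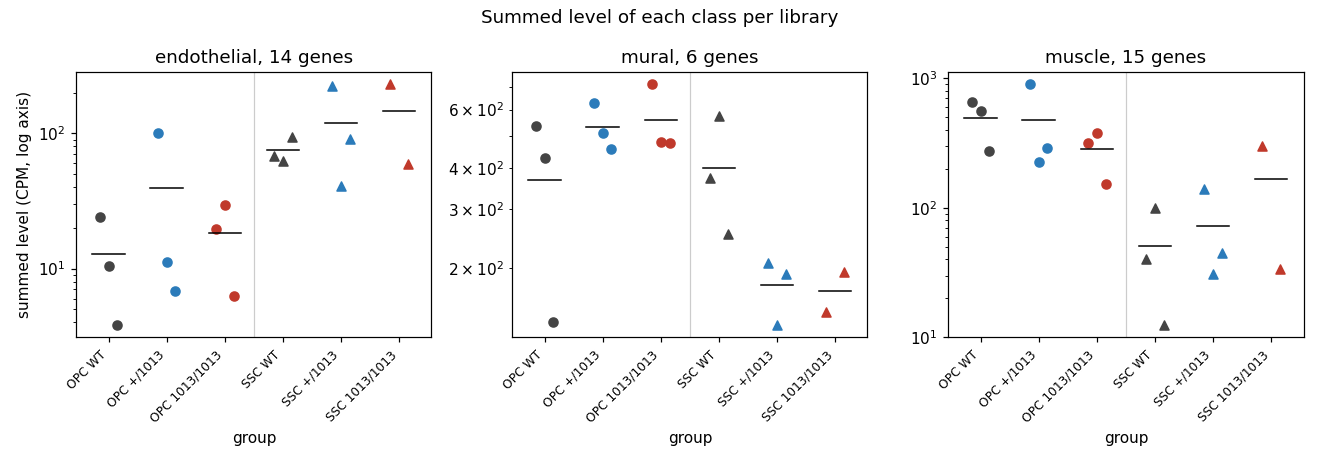
Summed level of the endothelial, mural and muscle genes in each library (points, log axis in CPM; circles OPC, triangles SSC) by group, with the group mean as a line. The endothelial sum is 40.9 to 232 CPM in SSCs, the muscle sum 152.8 to 901 CPM in OPCs, and mutant SSCs have mural sums of 134 to 208 CPM.

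The mural genes had the highest sum of the 3 classes in 6 of 8 SSC libraries, with 372, 574 and 253 CPM in WT, 208, 134 and 192 CPM in +/1013 and 147 and 194 CPM in 1013/1013 SSCs. In OPCs they summed to 535, 429 and 137 CPM in WT, 627, 511 and 455 CPM in +/1013 and 717, 479 and 477 CPM in 1013/1013 OPCs. Nearly all of it came from Cspg4 and Acta2, which made up 59.8% and 35.5% of the sum in OPCs and 68.4% and 28% in SSCs on average. Both are mural markers that are not restricted to that cell type, and the genes most specific to smooth muscle were low. Cspg4 encodes the NG2 proteoglycan (chr9:56865033-56899870, plus strand) and was at 267, 262 and 81.1 CPM in WT, 179, 293 and 331 CPM in +/1013 and 548, 302 and 336 CPM in 1013/1013 OPCs. SSC levels of Cspg4 were 274, 335 and 197 CPM in WT, 115, 79.9 and 149 CPM in +/1013 and 103 and 144 CPM in 1013/1013 SSCs. These levels are not scaled by TMM, whose factors were 1.42 for WT replicate 3 and 1.06 for 1013/1013 replicate 2. The gap between these libraries is therefore smaller after scaling than in CPM. Acta2, smooth muscle α-actin (chr19:34241090-34255590, minus strand), was at 248, 154 and 46.3 CPM in WT, 372, 189 and 116 CPM in +/1013 and 158, 153 and 132 CPM in 1013/1013 OPCs. It was at 80.04, 198 and 52.7 CPM in WT, 86.95, 51.8 and 37.5 CPM in +/1013 and 39.2 and 39.1 CPM in 1013/1013 SSCs, and the mutant SSC libraries lay below all mutant OPC libraries.

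The other mural genes were lower than Cspg4 in every library. Mcam, the adhesion molecule CD146 of pericytes and endothelium (chr9:44134469-44142727, plus strand), was at 17.9, 12.5 and 8.73 CPM in WT, 48.7, 24.1 and 7.19 CPM in +/1013 and 8.504, 18.6 and 6.002 CPM in 1013/1013 OPCs, and at 4.58, 8.104 and 1.596 CPM in WT, 2.499, 1.32 and 2.46 CPM in +/1013 and 3.64 and 6.26 CPM in 1013/1013 SSCs. In CPM, only WT replicate 2 and 1013/1013 replicate 2 of the SSC libraries reached the OPC range. Their TMM factors were 1.37 and 1.06, against 0.8215 for OPC 1013/1013 replicate 3, the lowest OPC library. After scaling both lay below the OPC range. Myh11, the myosin heavy chain of smooth muscle, was at 0, 0 and 0.461 CPM in WT, 20.2, 2.41 and 0 CPM in +/1013 and 0, 4.22 and 0 CPM in 1013/1013 OPCs. Its SSC level was 11.1, 30.3 and 1.57 CPM in WT, 0.0403, 0.925 and 2.502 CPM in +/1013 and 0 and 3.96 CPM in 1013/1013 SSCs, and it was at 0 in 6 of the 17 libraries. Tagln, the actin-binding transgelin, was at 1.69, 1.33 and 0.553 CPM in WT, 4.37, 1.08 and 0.777 CPM in +/1013 and 1.04, 0.896 and 1.02 CPM in 1013/1013 OPCs. In SSCs it was at 0.625, 0.638 and 0.337 CPM in WT, 0.504, 0.226 and 0.163 CPM in +/1013 and 0.9498 and 0.139 CPM in 1013/1013 SSCs, but 67.9% of its exon bases overlap genes on the opposite strand, and the reads carried no strand, so its level is uncertain. Cnn1, calponin, had medians of 0.571 CPM in OPCs and 0.370 CPM in SSCs and was at 0 in 5 libraries.

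**Figure D3:**
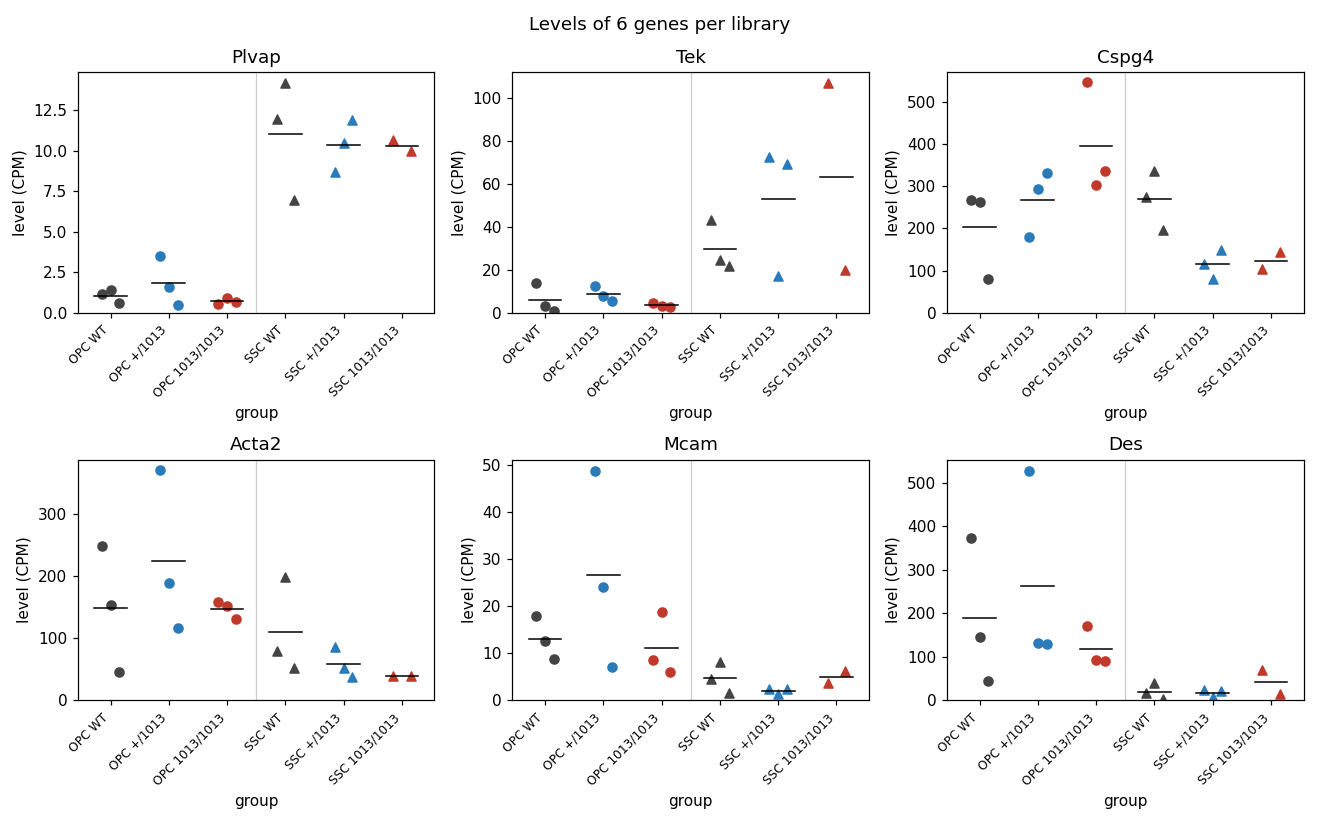
Level in CPM (linear axis from 0) of Plvap, Tek, Cspg4, Acta2, Mcam and Des in each library (points) by group, with group means as lines. In CPM not scaled by TMM, all SSC libraries lie above all OPC libraries for Plvap and Tek, and after scaling those of Tek overlap. Cspg4 is at 79.9 to 149 CPM in mutant SSCs against 197 to 335 CPM in WT SSCs, not scaled by TMM.

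The muscle genes had their highest sums in OPCs, where they came to 650.2, 559.6 and 273 CPM in WT, 901, 225 and 288 CPM in +/1013 and 318, 380.0 and 153 CPM in 1013/1013 OPCs. In SSCs the sum was 40.3, 100.3 and 12.4 CPM in WT, 139.9, 30.9 and 44.6 CPM in +/1013 and 300.5 and 33.7 CPM in 1013/1013 SSCs. One SSC library, 1013/1013 replicate 1, held the highest SSC level of 13 of the 15 genes and the fewest genes with a count of all libraries (15748), and no OPC library led more than 5 of them. Des and Acta1 supplied 44.4% and 30.3% of the sum in OPCs and 32.6% and 24.7% in SSCs on average. Des, the intermediate filament desmin (chr1:75360329-75368579, plus strand), is made in myogenic and smooth muscle cells as well as in fibers, and was at 374, 146 and 44.99 CPM in WT, 527, 132 and 129.5 CPM in +/1013 and 171, 93.3 and 90.1 CPM in 1013/1013 OPCs. It was lower in SSCs, at 16.4, 41.2 and 2.81 CPM in WT, 23.7, 8.103 and 21.8 CPM in +/1013 and 70.7 and 13.8 CPM in 1013/1013 SSCs. Of all 8 libraries only 1013/1013 replicate 1 reached the OPC range in CPM. Its TMM factor was 1.23, against 0.734 for OPC WT replicate 3, the lowest OPC library, and after scaling it lay below that range. Acta1, the α-actin of the skeletal sarcomere (chr8:123891769-123894751, minus strand), was at 128, 283 and 185 CPM in WT, 155, 17.4 and 92.1 CPM in +/1013 and 67.2, 159 and 22.8 CPM in 1013/1013 OPCs. Its SSC level was 4.23, 31.1 and 1.91 CPM in WT, 70.8, 4.81 and 9.09 CPM in +/1013 and 112 and 5.62 CPM in 1013/1013 SSCs, so that WT replicate 2, +/1013 replicate 1 and 1013/1013 replicate 1 stood within the OPC range.

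The sequences before the start sites of Des, Acta1 and the mural gene Acta2 are shown because these actin and desmin genes carry much of the muscle and mural sums. They are the 250 bases upstream of the RefSeq start (GRCm38.p6), written 5′ to 3′ on the strand of the gene, and the RefSeq start can differ from the start of the gene model used for counting. Capitals mark the letters CAGCTG, one form of the E-box read by MyoD family factors, and the CArG box of serum response factor. The CArG box was searched only in its strict form, with nothing but A or T between CC and GG, as in CCAAATATGG. Variants with a G or C inside, such as ccctatatgg in the Acta2 window, were neither counted nor marked. Both the E-box form and the strict CArG form were searched on both strands and do not overlap each other here.
Des, chr1:75360042-75360291, plus strand: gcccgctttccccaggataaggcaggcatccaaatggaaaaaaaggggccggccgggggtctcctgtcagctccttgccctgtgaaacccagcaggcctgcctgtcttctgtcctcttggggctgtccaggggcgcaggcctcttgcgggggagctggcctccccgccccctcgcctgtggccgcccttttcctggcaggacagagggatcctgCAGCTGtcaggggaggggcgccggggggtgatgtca
Acta1, chr8:123894776-123895025, minus strand: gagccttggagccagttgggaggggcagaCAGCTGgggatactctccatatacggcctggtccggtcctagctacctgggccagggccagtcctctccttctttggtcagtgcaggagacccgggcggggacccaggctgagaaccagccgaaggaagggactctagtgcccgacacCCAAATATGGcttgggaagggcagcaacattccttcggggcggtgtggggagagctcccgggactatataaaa
Acta2, chr19:34255374-34255623, minus strand: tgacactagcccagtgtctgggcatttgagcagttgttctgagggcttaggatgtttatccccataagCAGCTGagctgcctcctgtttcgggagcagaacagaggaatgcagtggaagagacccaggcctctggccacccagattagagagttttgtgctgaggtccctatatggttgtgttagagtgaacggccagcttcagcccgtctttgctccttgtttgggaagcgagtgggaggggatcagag
Each of the 3 windows held this E-box form once, and that of Acta1 also held 1 strict CArG box. Among the muscle genes with a window, 8 of 12 held it (Acta1, Ckm, Myh4, Mylpf, Myl1, Atp2a1, Des and Mb), against 1 of 8 endothelial genes and 1 of 4 mural genes. The same letters occurred in 13% of all 32851 windows of this length. A gene was counted if any of its windows held the letters, whereas this share is of single windows. The strict CArG form was found in Acta1 and Myh4 among the muscle genes and in 0 of 12 endothelial and mural genes with a window. It occurred in 1.47% of all windows. These are matches of letters and not measured binding.

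Fast-fiber genes followed at lower levels. Actn3, the α-actinin of fast fibers, was at 76.99, 31.5 and 8.04 CPM in WT, 113, 42.4 and 19.3 CPM in +/1013 and 37.9, 14.3 and 19.02 CPM in 1013/1013 OPCs, and at 2.62, 4.998 and 1.51 CPM in WT, 2.62, 1.15 and 0.651 CPM in +/1013 and 17.01 and 0 CPM in 1013/1013 SSCs. Atp2a1, the calcium pump of the fast sarcoplasmic reticulum, was at 23.03, 28.8 and 4.41 CPM in WT, 39.98, 18.8 and 10.1 CPM in +/1013 and 23, 51.02 and 4.14 CPM in 1013/1013 OPCs. SSC levels of Atp2a1 were 0.726, 2.67 and 0.517 CPM in WT, 6.21, 0.967 and 1.99 CPM in +/1013 and 16.8 and 2.099 CPM in 1013/1013 SSCs. Among SSCs only 1013/1013 replicate 1 reached the OPC range for Actn3, and it and +/1013 replicate 1 did so for Atp2a1. Ckm, muscle creatine kinase, was at 9.28, 11.1 and 2.905 CPM in WT, 14.9, 0.436 and 3.96 CPM in +/1013 and 2.18, 8.41 and 0.825 CPM in 1013/1013 OPCs. It was at 0.262, 1.87 and 0 CPM in WT, 5.42, 0.473 and 0.773 CPM in +/1013 and 17.4 and 0 CPM in 1013/1013 SSCs, again highest in 1013/1013 replicate 1.

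The troponin and light chain genes were detected in most libraries. Tnni2, fast troponin I, was at 8.04, 9.198 and 6.103 CPM in WT, 9.95, 3.54 and 9.56 CPM in +/1013 and 9.46, 10.7 and 8.09 CPM in 1013/1013 OPCs, and at 4.72, 1.52 and 1.21 CPM in WT, 3.59, 1.995 and 1.59 CPM in +/1013 and 13.9 and 2.28 CPM in 1013/1013 SSCs. Of the SSC libraries, replicate 1 of each genotype reached the OPC range in CPM not scaled by TMM. Tnnc2, fast troponin C, was at 0.621, 0.621 and 0.0307 CPM in WT, 0.702, 0.0903 and 0.604 CPM in +/1013 and 0.132, 0.706 and 0.105 CPM in 1013/1013 OPCs. In SSCs Tnnc2 was at 0, 0.0206 and 0 CPM in WT, 0.0806, 0.0206 and 0 CPM in +/1013 and 0.0905 and 0.0198 CPM in 1013/1013 SSCs, mostly under the floor, and 74% of its exon bases overlap Ube2c on the opposite strand. The slow and cardiac troponin Tnnc1 was high in a pair of WT OPC libraries, at 0.434, 6.26 and 6.73 CPM, against 0.889, 0.496 and 0.335 CPM in +/1013 and 0.172, 0.842 and 0 CPM in 1013/1013 OPCs. SSC levels of Tnnc1 were 0.383, 2.82 and 0.225 CPM in WT, 1.995, 0.329 and 0 CPM in +/1013 and 5.202 and 0.257 CPM in 1013/1013 SSCs. The highest 2 of 9 OPC libraries were thus both WT, and the other 7 were below 1 CPM. Mylpf, a regulatory light chain of fast myosin, was at 2.77, 4.97 and 0.323 CPM in WT, 5.21, 1.44 and 3.71 CPM in +/1013 and 1.54, 7.95 and 1.74 CPM in 1013/1013 OPCs, and at 1.39, 1.71 and 1.303 CPM in WT, 3.26, 1.46 and 1.89 CPM in +/1013 and 7.55 and 2.16 CPM in 1013/1013 SSCs. Myl1, an essential light chain, was at 4.85, 11.8 and 5.84 CPM in WT, 10.3, 2.48 and 6.19 CPM in +/1013 and 1.29, 9.74 and 0.855 CPM in 1013/1013 OPCs. Its SSC level was 2.02, 4.03 and 0.944 CPM in WT, 8.66, 3.97 and 3.32 CPM in +/1013 and 16.8 and 4.08 CPM in 1013/1013 SSCs, and the cell types overlapped for both light chains. Tnnt3, fast troponin T, had medians of 6.45 CPM in OPCs and 4.61 CPM in SSCs, Mb, the oxygen store myoglobin, of 4.14 and 0.891 CPM, and Pvalb, the calcium buffer parvalbumin, of 0.317 and 0.192 CPM.

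The heavy chains of fast fibers were scarce. Myh4, the myosin of type IIb fibers, was at 0.176, 1.38 and 0 CPM in WT, 0.0468, 0.01505 and 0.302 CPM in +/1013 and 0, 0.0136 and 0 CPM in 1013/1013 OPCs. In SSCs it was at 1.07, 1.502 and 0 CPM in WT, 0, 0 and 0 CPM in +/1013 and 1.02 and 0.0396 CPM in 1013/1013 SSCs, and only 6 of 17 libraries were above the floor. Myh1, the myosin of type IIx fibers, was at 2.94, 0 and 0.769 CPM in WT, 2.46, 0.948 and 1.07 CPM in +/1013 and 0.409, 1.55 and 0 CPM in 1013/1013 OPCs, and at 0, 0.329 and 0 CPM in WT, 2.58, 1.09 and 0.0203 CPM in +/1013 and 0 and 0 CPM in 1013/1013 SSCs. It was above the floor in 7 of 9 OPC and 3 of 8 SSC libraries. Per kilobase of exon, the median level in OPCs was 83.1 CPM for Acta1 and 35.2 CPM for Des but 0.149 CPM for Myh1 and 0.0025 CPM for Myh4.

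SSCs were next set against OPCs of the same genotype, which asks where the transcripts sit irrespective of the mutation. Calls required 1.5-fold or more and an adjusted p (Benjamini-Hochberg, over all genes tested) under 0.05. In WT, 6 of 35 genes were lower in SSCs, namely Des, Atp2a1, Tnni2, Tnnc2, Acta1 and Mcam, against 5.86% of 20238 genes called lower, and Plvap was higher, against 5.55% called higher. In +/1013, Mcam, Des, Acta2, Cspg4, Actn3 and Tagln were lower (6.02% of genes) and Plvap was higher (6.44%). In 1013/1013, Cspg4 and Acta2 were lower (6.12%) and Tek and Plvap were higher (6.94%), 2 of 35 in each direction and so near the share of all genes. DESeq2 called 11 genes in WT, 11 in +/1013 and 5 in 1013/1013, where it called 21.1%, 24% and 27.4% of the genes it tested. All 35 genes entered this fit, but some passed the filter on low counts only through the group in which they were high. Tnnc2 had too few counts to be tested among SSCs alone, and Emcn, Flt4 and Sox17 too few among OPCs alone. The call of Tnnc2 in WT is therefore no support, although it is in the count of 6.

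Plvap was higher in SSCs of all genotypes, with log2 fold change 2.64 ± 0.59 (SE), edgeR adjusted p = 0.0108 in WT, log2 fold change 2.16 ± 0.58 (SE), edgeR adjusted p = 0.0261 in +/1013, and log2 fold change 3.45 ± 0.64 (SE), edgeR adjusted p = 0.00342 in 1013/1013. Tek was called in 1013/1013 (log2 fold change 3.71 ± 0.90 (SE), edgeR adjusted p = 0.0156). The median change of the 14 endothelial genes was 2.19, 1.55 and 1.97 on the log2 scale in WT, +/1013 and 1013/1013, against 0.17, 0 and -0.20 over all genes tested. Of the 14, 11, 12 and 13 were on the SSC side. These include Emcn, Flt4 and Sox17, which had too few counts to be tested among OPCs alone. Flt4 was at 0 in every OPC library, so its direction was fixed in advance and is no support. Without OPC +/1013 replicate 1 the +/1013 median was 5.09. In the remaining +/1013 OPC libraries Cldn5, Esam, Emcn, Flt4 and Sox17 were at 0, and Pecam1 and Tie1 at 0 and 0.0108 CPM. Folds against such levels depend on the prior count, so the size of 5.09 is uncertain. Without the 3 libraries rich in leukocyte and erythroid transcripts the WT median was 0.76. Flt4 was at 0 in WT OPCs and at least 29.3-fold higher in WT SSCs against 3 counts per library, but did not pass the test.

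Des, the leading muscle gene, was lower in SSCs of WT (log2 fold change -3.93 ± 0.97 (SE), edgeR adjusted p = 0.0182) and of +/1013 (log2 fold change -4.21 ± 0.98 (SE), edgeR adjusted p = 0.0128). In WT the further muscle genes called were Atp2a1 (log2 fold change -4.58 ± 1.14 (SE), edgeR adjusted p = 0.0193), Tnni2 (log2 fold change -2.38 ± 0.67 (SE), edgeR adjusted p = 0.0359) and Acta1 (log2 fold change -4.79 ± 1.43 (SE), edgeR adjusted p = 0.0452). Tnnc2 was called too, on 1 count over the WT SSC libraries against 103 over WT OPCs, a ratio of 0.0155 with an exact 95% counting interval of 0.000388 to 0.0882. Actn3 was called in +/1013 (log2 fold change -5.63 ± 1.47 (SE), edgeR adjusted p = 0.0223). In 1013/1013 edgeR called 0 muscle genes, while 2 had an unadjusted p under 0.05 and DESeq2 called Myh1. The median of the 15 muscle genes was -3.61 in WT, -1.84 in +/1013 and -0.68 in 1013/1013, with 15, 14 and 10 of the 15 lower in SSCs. The 15 include Tnnc2, which had too few counts to be tested among SSCs alone and whose direction is no support. The 1013/1013 value rested on 2 SSC libraries that differed, with muscle sums of 300.5 CPM in replicate 1 and 33.7 CPM in replicate 2. The muscle sum of 1013/1013 OPCs was 153 to 380 CPM, above replicate 2 only. A trend of the medians with genotype was not tested. With Myh4 set at its bound the +/1013 median was -1.48, and without the 3 libraries rich in leukocyte and erythroid transcripts the 1013/1013 median was 0.94.

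Among the mural genes, 4 in +/1013 and 2 in 1013/1013 were lower in SSCs. Acta2 gave log2 fold change -2.30 ± 0.56 (SE), edgeR adjusted p = 0.0165 in +/1013 and log2 fold change -2.29 ± 0.66 (SE), edgeR adjusted p = 0.0356 in 1013/1013. Cspg4 gave log2 fold change -1.72 ± 0.43 (SE), edgeR adjusted p = 0.0191 in +/1013 and log2 fold change -2.02 ± 0.51 (SE), edgeR adjusted p = 0.0194 in 1013/1013. Mcam had the smallest p of the 35 genes in +/1013 (log2 fold change -4.01 ± 0.73 (SE), edgeR adjusted p = 0.00252). The 6 mural genes had a median of -0.75 in WT, -2.61 in +/1013 and -1.77 in 1013/1013. The 15 further mural genes had medians of 0.59, -0.68 and 0.58, with 11, 6 and 9 of 15 higher in SSCs, and their sum was 158 to 725 CPM in OPCs and 428 to 1439 CPM in SSCs.

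The calls depended on single libraries. In WT the count of 7 fell to between 2 and 5 when any 1 of the 6 libraries was left out, with Plvap called each time, and to 1, Des, without OPC WT replicate 3 and SSC WT replicate 3, which are rich in leukocyte transcripts. In +/1013 the count was 1, Mcam, without SSC +/1013 replicate 2, and Plvap was no longer called without OPC replicate 2, OPC replicate 3, SSC replicate 2 or SSC replicate 3. Without the 3 OPC or SSC libraries named above as rich in leukocyte transcripts, the +/1013 and 1013/1013 counts were 7 and 4. In 1013/1013 the count was 2 or 3 after leaving out any 1 library, with Plvap called each time.

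**Figure D4:**
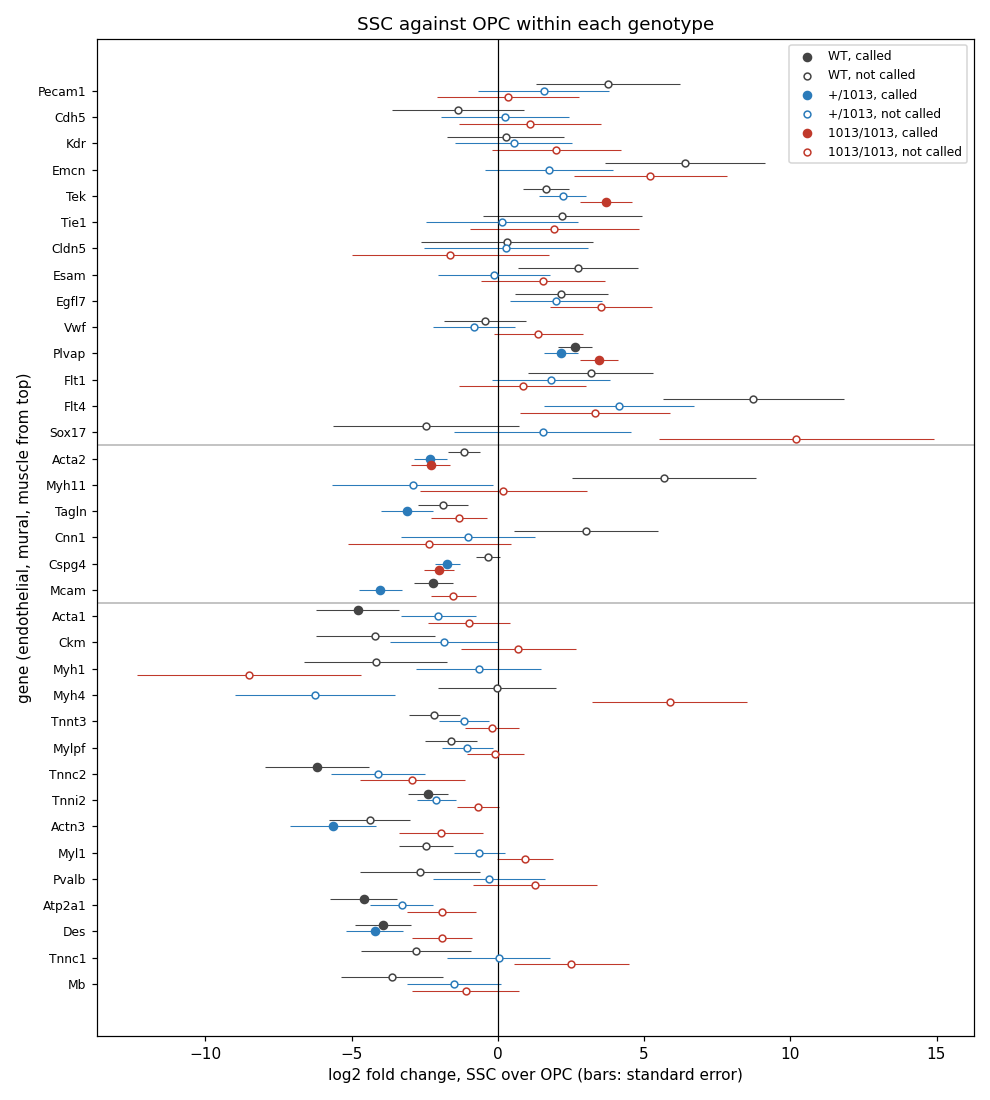
log2 fold change of SSC over OPC (x axis, bars are standard errors) for each gene (rows) in WT, +/1013 and 1013/1013, with filled points where the gene was called. Plvap is filled on the right in all genotypes, and the filled points on the left are Acta2, Tagln, Cspg4 and Mcam among mural and Acta1, Tnnc2, Tnni2, Actn3, Atp2a1 and Des among muscle genes.

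The genes of the same cell types outside the 35 gave the following counts. Over all genes tested, 5.86%, 6.02% and 6.12% were called lower in SSCs in WT, +/1013 and 1013/1013. The shares called higher were 5.55%, 6.44% and 6.94%. Counts of the further endothelial, mural and muscle genes were near these shares and are not read as a result. Of 20 further endothelial genes, edgeR called 2 higher in SSCs in WT, 2 higher and 1 lower in +/1013, and 2 higher in 1013/1013. Their sum was 127.5 to 545 CPM in OPCs and 976 to 2683 CPM in SSCs, and the most abundant was Cd34, which stromal cells also make, at 26.5 to 347 CPM in OPCs and 715 to 2181 CPM in SSCs. Of 15 further mural genes, 1 was higher in WT, 1 higher and 2 lower in +/1013, and 1 higher and 1 lower in 1013/1013, with Pdgfrb, the PDGF receptor of pericytes and stroma, the most abundant by mean over all 17 libraries, though not in each OPC library. Of 24 further muscle genes, 2, 3 and 2 were lower in SSCs in WT, +/1013 and 1013/1013, and 0 were higher. Of 6 osteolineage genes, 6, 6 and 5 were lower in SSCs, and of 15 leukocyte and erythroid genes edgeR called 0 in each genotype, with 0, 0 and 1 at an unadjusted p under 0.05.

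The satellite cell and myogenic factor genes Pax7, Pax3, Myf5, Myod1, Myog, Myf6 and Chodl were compared between the cell types as well. They summed to 55.5 to 1134 CPM in OPCs and 12.1 to 70.7 CPM in SSCs, and 4, 6 and 4 of the 7 were called lower in SSCs in WT, +/1013 and 1013/1013. Over all genes tested 5.86%, 6.02% and 6.12% were called lower. Only 4 of the 7 had enough counts to be tested among SSCs alone. The others passed the filter through the OPC libraries, where they were high, so their calls are no support. Chodl was the most abundant and made up most of the sum in every library, at 38.9 to 919 CPM in OPCs and 12.1 to 70.0 CPM in SSCs. Myog, the factor that starts myoblast fusion, was at 1.97 to 61.8 CPM in OPCs and at 0 in all SSC libraries, so its direction was fixed in advance. Myf5 was at 2.67 to 75.1 CPM in OPCs and at most 0.576 CPM in SSCs.

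Over the 9 OPC libraries some of the muscle genes moved with this sum and others did not. On the scale log2(CPM + 0.1), Des followed it with a Pearson r of 0.961 (exact permutation p = 4.68e-05, adjusted over 15 genes 0.000703) and a Spearman rho of 0.983 (exact permutation p = 4.96e-05, adjusted 0.000744). Actn3 gave r = 0.951 (exact permutation p = 0.00019, adjusted 0.00143) and rho = 0.900 (exact permutation p = 0.00203, adjusted 0.0152). Acta1 gave r = 0.104 (exact permutation p = 0.786, adjusted 0.842) and rho = 0.0167 (exact permutation p = 0.982, adjusted 0.982). For Atp2a1 r was 0.732 (exact permutation p = 0.0241, adjusted 0.121) and rho 0.683 (exact permutation p = 0.0503, adjusted 0.252). Pvalb gave r = 0.701 (exact permutation p = 0.0345, adjusted 0.13) and rho = 0.519 (exact permutation p = 0.156, adjusted 0.389). For the other 10 genes r ranged from -0.22 to 0.594. Without OPC +/1013 replicate 1 and OPC WT replicate 3, the libraries farthest from the median sum, r was 0.886 for Des, 0.867 for Actn3 and 0.337 for Acta1. With Chodl left out of the sum, r was 0.852 for Des, 0.865 for Actn3 and 0.232 for Acta1, and Atp2a1 then passed for r (0.881, exact permutation p = 0.00269, adjusted 0.0159) but not for rho (0.717, exact permutation p = 0.0369, adjusted 0.184). With levels centred on their genotype and permuted within genotypes, Des gave r = 0.975 (exact permutation p = 0.00463, the smallest that 216 orders can give, adjusted 0.0694) and Actn3 r = 0.968 (exact permutation p = 0.00926, adjusted 0.0694), neither of which passed after adjustment, and Acta1 gave r = 0.24. Without Chodl the adjusted p within genotypes was 0.162 for Des, Actn3 and Atp2a1 (exact permutation). The relation was looked for after the levels had been seen, and OPC +/1013 replicate 1 was also the library with the highest endothelial sum; the part of the vessel transcripts in it was not tested.

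**Figure D5:**
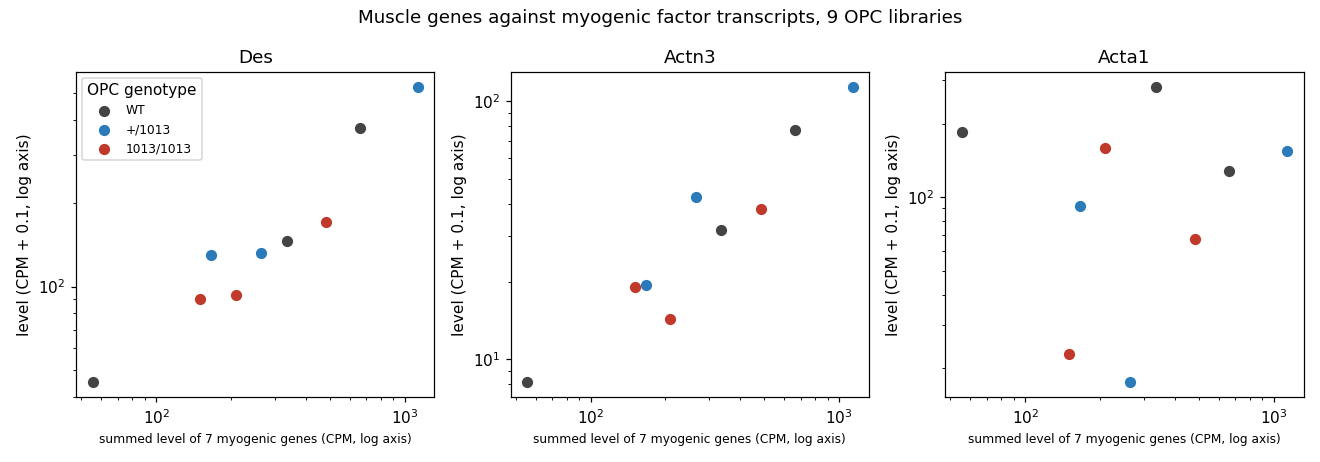
Level of Des, Actn3 and Acta1 (y axis, CPM + 0.1, log axis) against the summed level of 7 satellite cell and myogenic factor genes (x axis, CPM, log axis) in the 9 OPC libraries, colored by genotype. Des (r = 0.961) and Actn3 (r = 0.951) rise with the sum and Acta1 (r = 0.104) does not.

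The effect of the 1013 allele was then tested within each cell type. In OPCs 32 of the 35 genes had enough counts to be tested, Emcn, Flt4 and Sox17 being left out. For +/1013 against WT, edgeR called 0 members (0% of 16207 genes), 0 had an unadjusted p under 0.05 (2.04% of genes), and DESeq2 called 0 (0.367%). For 1013/1013 against WT, edgeR called 0 members (0.00617% of genes), 2 had an unadjusted p under 0.05 (3.38%), and DESeq2 called 0 (0.266%). For 1013/1013 against +/1013 the members called were 0 by edgeR (0%), 0 at an unadjusted p under 0.05 (3.17%) and 0 by DESeq2 (0.373%). The smallest p against WT in +/1013 were those of Tnnc1 (log2 fold change -3.18 ± 1.57 (SE), edgeR adjusted p = 1.0), Cldn5 (log2 fold change 6.11 ± 3.33 (SE), edgeR adjusted p = 1.0) and Acta1 (log2 fold change -1.37 ± 0.81 (SE), edgeR adjusted p = 1.0). The change of Cldn5 rested on 1 library and was -5.22 without OPC +/1013 replicate 1. Cldn5 was at 0 in the remaining +/1013 OPC libraries, so -5.22 is no estimate of a fold. In 1013/1013 they were Myh4 (log2 fold change -6.49 ± 2.40 (SE), edgeR adjusted p = 0.9997), Tnnc1 (log2 fold change -3.93 ± 1.62 (SE), edgeR adjusted p = 0.9997) and Cspg4 (log2 fold change 0.83 ± 0.47 (SE), edgeR adjusted p = 0.9997), and Myh4 rested on 1 count in 1013/1013 against 122 in WT. Between the mutants Mcam (log2 fold change -1.22 ± 0.61 (SE), edgeR adjusted p = 0.999), Myh4 (log2 fold change -4.43 ± 2.22 (SE), edgeR adjusted p = 0.999) and Plvap (log2 fold change -1.31 ± 0.76 (SE), edgeR adjusted p = 0.999) led the list.

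The median change against WT in OPCs was 1.34 for endothelial, 0.74 for mural and -0.23 for muscle genes in +/1013, and 0.93, 0.36 and -0.81 in 1013/1013, against about 0 over all genes. The endothelial median of +/1013 was -1.998 without OPC +/1013 replicate 1, with Cldn5 and Esam at 0 in the remaining +/1013 libraries, so its size is uncertain. The muscle median of 1013/1013 was -2.37 without OPC WT replicate 3 and OPC 1013/1013 replicate 2. In 1013/1013 OPCs all 7 satellite cell and myogenic genes had a lower fitted level than in WT, with a median of -0.84, but 0 were called, 0 had an unadjusted p under 0.05, and their sums of 483, 209 and 150.3 CPM overlapped the WT sums of 663, 335 and 55.5 CPM.

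In SSCs 34 genes were tested, all but Tnnc2. The leukocyte list also moved with genotype here, since 15 of 15 of its genes were lower in +/1013 than in WT and 8 had an unadjusted p under 0.05, its sum being 180 to 415 CPM in +/1013 and 701 to 9786 CPM in WT. WT SSC libraries also had 21449 to 22599 genes with a count and 3.68% to 4.16% of reads in no gene, against 15748 to 19227 genes and 1.504% to 2.69% in the 5 mutant libraries. The part of either in the results below was not tested. For +/1013 against WT, edgeR called 0 members (0.0736% of 17659 genes), 2 had an unadjusted p under 0.05 (17.3%), and DESeq2 called 1, Cspg4 (8.33%). For 1013/1013 against WT, edgeR called 0 (0%), 4 had an unadjusted p under 0.05 (18.3%), and DESeq2 called 0 (11.2%). For 1013/1013 against +/1013, edgeR called 0 (0%), 1 had an unadjusted p under 0.05 (5.53%), and DESeq2 called 0 (1.06%).

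Cspg4 was the leading gene in +/1013 SSCs (log2 fold change -0.999 ± 0.30 (SE), edgeR adjusted p = 0.18), and DESeq2 gave it an adjusted p of 0.0217. All 6 mural genes had a lower fitted level in +/1013 than in WT, with a median of -0.81, and in 1013/1013 the median was -1.03 with 4 of 6 lower, against -0.11 and -0.23 over all genes. The mural sum was 253 to 574 CPM in WT and 134 to 208 CPM in the 5 mutant libraries, but with library sizes scaled by TMM the groups overlapped, at 178 for WT replicate 3 and 183 for 1013/1013 replicate 2. The sum of the 15 further mural genes overlapped as well, at 559 to 1439 CPM in WT and 428 to 673 CPM in the mutants. Of the 6 osteolineage genes, 6 had a lower fitted level in +/1013 and 5 in 1013/1013, with medians of -1.31 and -0.92. Of these 6, edgeR called 0 in either comparison, with 2 at an unadjusted p under 0.05 in each, and their sum was 11570 to 16620 CPM in WT and 2269 to 4785 CPM in the mutants. Their part in the mural levels was not tested. Myh4 was at 0 in +/1013 and at least 14-fold lower than in WT, in which 1 of 3 libraries was also at 0 (edgeR adjusted p = 0.243). Flt4 followed (log2 fold change -4.59 ± 2.38 (SE), edgeR adjusted p = 0.3696). In 1013/1013 the leading genes were Myl1 (log2 fold change 2.38 ± 0.85 (SE), edgeR adjusted p = 0.216), Atp2a1 (log2 fold change 3.06 ± 1.19 (SE), edgeR adjusted p = 0.238) and Mylpf (log2 fold change 1.95 ± 0.76 (SE), edgeR adjusted p = 0.242), all of the muscle class, whose median was 1.78. The further muscle genes had a median of -1.88 with 14 of 22 lower, and 4 of 4 satellite cell and myogenic genes tested had a lower fitted level with a median of -2.03, the opposite direction. Of these lists edgeR called 0 genes, with 3 and 0 at an unadjusted p under 0.05. These rested mainly on replicate 1 of the 2 libraries: without it the 3 values were 1.15, 1.03 and 0.90. Between the mutants, Myh4 was at 0 in +/1013 and at least 8.66-fold higher in 1013/1013, Myh1 was at 0 in 1013/1013 and at least 19.3-fold lower than in +/1013, and Vwf gave log2 fold change 2.78 ± 1.26 (SE), edgeR adjusted p = 0.788 and -0.44 without SSC 1013/1013 replicate 1.

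The difference of the genotype effect between SSCs and OPCs was tested directly. For +/1013, edgeR called 0 of 35 members (0.084% of genes), 1 had an unadjusted p under 0.05 (10.6%), and DESeq2 called 0 (2.67%). For 1013/1013, edgeR called 0 (0.153%), 3 had an unadjusted p under 0.05 (15%), and DESeq2 called 0 (6.83%). Cspg4 led both, with a difference of -1.39 ± 0.60 (SE, edgeR adjusted p = 0.446) for +/1013 and -1.69 ± 0.65 (SE, edgeR adjusted p = 0.266) for 1013/1013, its fitted level being lower than WT in mutant SSCs and higher in 1013/1013 OPCs. The next were Myh11 (-8.59 ± 4.16, SE, edgeR adjusted p = 0.484) and Mcam (-1.82 ± 0.92, SE, edgeR adjusted p = 0.504) for +/1013, and Myl1 (3.39 ± 1.33, SE, edgeR adjusted p = 0.276) and Sox17 (12.66 ± 5.62, SE, edgeR adjusted p = 0.323) for 1013/1013. Sox17 was at 0 in 1013/1013 OPCs, so its fitted size depends on the prior count and is no estimate of a fold. Myh11 was at 0, 0 and 0.461 CPM in WT OPCs. Its difference for +/1013 ran from -15.78 to -6.29 over the settings tried, so its size is uncertain.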

How the data were processed

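RNA of 17 sorted pools (OPCs and SSCs of WT, +/1013 and 1013/1013 mice) had been amplified with SMART-Seq v4, tagmented and sequenced in paired ends. The deposited values were raw read counts per Ensembl gene, made by the authors with STAR on mm10 and HTSeq after removal of reads under 50 bases; the submitters' notes also named FastQC and DESeq2, with versions not given in the sources used here. The reads carried no strand. Each sample had its own count file, and groups followed the submitters' labels. Rows that named no gene, 1.15% to 4.16% of reads in no feature and 1.87% to 3.93% ambiguous, were left out. Of 55335 genes, 55154 matched GENCODE M21 by identifier.

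CPM used the total count of a library. Genes were filtered with filterByExpr, scaled by TMM and tested two-sided with the quasi-likelihood test of edgeR 4.0.16 (R 4.3.3), with libraries of 1 cell type for genotype comparisons and all 17 libraries for SSC against OPC and for the interaction. A call needed a Benjamini-Hochberg adjusted p under 0.05 over all genes tested and a change of at least 1.5-fold, and the SE was derived from the log2 fold change and the F statistic. DESeq2 1.42.0 was an alternative, as were other scalings and filters, the 2 groups alone, the replicate number as a block, and leaving out each library. The test was tested on simulated data first. Of 100 genes changed 4-fold it recovered 30 in OPC 1013/1013 against WT, 11 in SSC 1013/1013 against WT and 19 in WT SSC against OPC. Of 100 changed 32-fold it recovered 61, 56 and 52, with 0, 4 and 3 false calls. A count of 0 called can therefore miss changes of these sizes. Correlations used exact permutation over all 362880 orders (scipy 1.17.1). Intervals and the floor of 3 counts cover counting error only, since reads without molecular identifiers are not independent molecules. Replicates were separate pools of mice by the study's methods, and p-values measure the spread between pools.

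Single test results were given for genes called in a comparison, at most the 6 of smallest p, filled up to 3 with the smallest p. Values in every library were given for these genes and for Pecam1, Cdh5, Acta2, Tagln, Acta1, Ckm and Myh4. Genes outside the 35 entered as lists, with at most 3 of a list named by mean CPM. The members and lists were chosen with earlier results of these data known. Promoter windows and their sequences were from RefSeq, GRCm38.p6, in which 24 of the 35 genes had an entry. One list of genes outside the 35 is not reported here.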

Additional observations from a re-analysis of the deposited data

How the results depend on the processing

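In WT, 7 genes were called between SSCs and OPCs, against 11 by DESeq2, 4 with no filter on low counts, 4 with only the 2 groups fitted, and 1 without the 3 libraries rich in leukocyte and erythroid transcripts, an alternative chosen after seeing the data. Leaving out 1 library at a time gave 2 to 5. In +/1013, 7 were called, against 11 by DESeq2 and 1 to 7 with 1 library left out. In 1013/1013, 4 were called, against 1 with only the 2 groups fitted and 2 to 3 with 1 library left out. Within cell types the count of 0 became 1 for SSC +/1013 against WT by DESeq2 (Cspg4), and was 0 to 1 for SSC 1013/1013 against WT with 1 library left out, the 1 being Mylpf without SSC 1013/1013 replicate 2, where the remaining library was assumed to vary like the other groups and 2931 of 19758 genes were called. The direction turned for Cldn5 in OPC +/1013 against WT (-5.22 without OPC +/1013 replicate 1) and for Vwf in SSC 1013/1013 against +/1013 (-0.44 to 3.65 with either SSC 1013/1013 library left out, the lower without replicate 1). The -5.22 of Cldn5 compares libraries at 0 with WT libraries near 0 and is no estimate of a fold. The cause of these changes was not tested, beyond the fewer samples of those fits. The scalings by RLE and upper quartile called the same genes as TMM between SSCs and OPCs. Of the values recomputed for single genes, 556 kept direction and side of the threshold, 59 lost the call, 2 gained it and 2 turned direction, and of the class medians 523 moved by less than the replicate spread and 14 by more.

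Replicate numbers recur across genotypes, but the deviations of libraries with the same number correlated at -0.18 to 0.22 in OPCs and -0.06 to 0.10 in SSCs, and OPC and SSC libraries of 1 genotype and number at 0.07 to 0.25 in WT and -0.02 to 0.03 in the mutants. Since not every pair was over 0.1, the numbers were not taken as pairs, although in WT OPC replicates 2 and 3 correlated best with the SSC library of their number. With the replicate number as a block the counts were 5 in WT (without Acta1 and Tnnc2), 10 in +/1013, 4 in 1013/1013 and 0 in all genotype comparisons and interactions.

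The libraries held 44217695 counts or more, but reads are not independent molecules, and what set the precision of single genes was not tested. Flt4, Myh4, Sox17 and Cldn5 were above the floor in 3, 6, 6 and 7 of the 17 libraries. Tnnc2 was above it in 10, of which 2 were SSC libraries.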

Other observations

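OPC +/1013 replicate 1 had the highest endothelial sum among OPCs (99.95 CPM) together with the highest muscle sum (901 CPM) and satellite cell and myogenic sum (1134 CPM), and SSC 1013/1013 replicate 1 had the highest endothelial (232 CPM) and muscle sums (300.5 CPM) among SSCs in CPM. SSC +/1013 replicate 1 was close to it for endothelial genes (225 CPM), with a muscle sum of 139.9 CPM, and with TMM scaling it was the higher, at 191.5 against 188.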
